A study of Mus musculus with 12 samples.

Results

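The comparison described here set the hypothalamus of mice heterozygous for the Wfs1 mutant allele Wfs1tm1Koks against that of wild-type mice. It used 8 of the 12 RNA-seq libraries of the study, chosen by genotype label alone: 4 heterozygous libraries (replicates 1, 2, 3 and 4) and 4 wild-type libraries (replicates 1, 2, 3 and 5). Each library came from a separate animal. Wild-type mice carried no mutant copy of Wfs1, and heterozygous mice carried a mutant and an intact copy. The labels give the strain of both groups as Wfs1tm1Koks, the name of the allele, and name no background strain, treatment, Cre line or transgene promoter. Sex and age are not given in the labels used here, and the growth protocol speaks of more animals per genotype than the libraries. Which exons the allele changes is not stated in the labels.

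Wfs1 encodes wolframin, a glycoprotein of the endoplasmic reticulum membrane that takes part in calcium handling, in the unfolded protein response and in the traffic of secretory cargo. Loss of both copies causes Wolfram syndrome, with diabetes insipidus, diabetes mellitus, optic atrophy and deafness. Diabetes insipidus in that syndrome arises from the vasopressin neurons of the hypothalamus, the brain region that also sets thyroid, growth, stress and feeding hormones through small peptides packed into secretory granules.

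Total counts were 1030045 to 1538688 in the wild-type and 1401947 to 2329642 in the heterozygous libraries. Levels below are CPM values, counts relative to the size of the library, scaled by the trimmed mean of M-values (TMM), and fold changes are heterozygous over wild-type. The first principal component held 36.1% of the variance of the 1000 most variable genes. Its scores were -8.92, -17.0, -9.64 and -0.52 in wild-type replicates 1, 2, 3 and 5 and 8.82, -0.65, 15.8 and 12.0 in heterozygous replicates 1 to 4. Heterozygous replicate 2 thus stood apart from its group, beside wild-type replicate 5, and it was also the deepest library. No library pair was identical. Of 9 pituitary genes in the table, which a dissection could add, Gh, Prl and the transcription factor Pou1f1 had no count in any of the 8 libraries, while Tshb had 21 counts over all 8, Lhb and Cga 3 each and Fshb 2. The other two, Pomc and Chgb, are also expressed by hypothalamic neurons.

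Wfs1 itself was lower in every heterozygous library. It lies on the minus strand of chromosome 5 (chr5:36966104-36989205, mm10, gene coordinates from GENCODE M21). Its level was 118, 142, 168 and 172 CPM in wild-type and 87.0, 84.0, 107 and 93.7 CPM in heterozygous mice. The groups did not overlap, and the mean was 150.3 ± 25.2 CPM in wild-type and 93.0 ± 10.3 CPM in heterozygous hypothalamus (SD, n = 4 each). That was a 1.63-fold reduction (edgeR quasi-likelihood test, log2 fold change -0.70 ± 0.13 SE, adjusted p = 0.00265, p adjusted by Benjamini-Hochberg over all 10494 genes tested). The call held when any of the 8 libraries was left out, with adjusted p up to 0.0197. With a term for how each library's counts followed base composition, the value was -0.63 at adjusted p = 0.275, which did not pass.

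**Figure D1:**
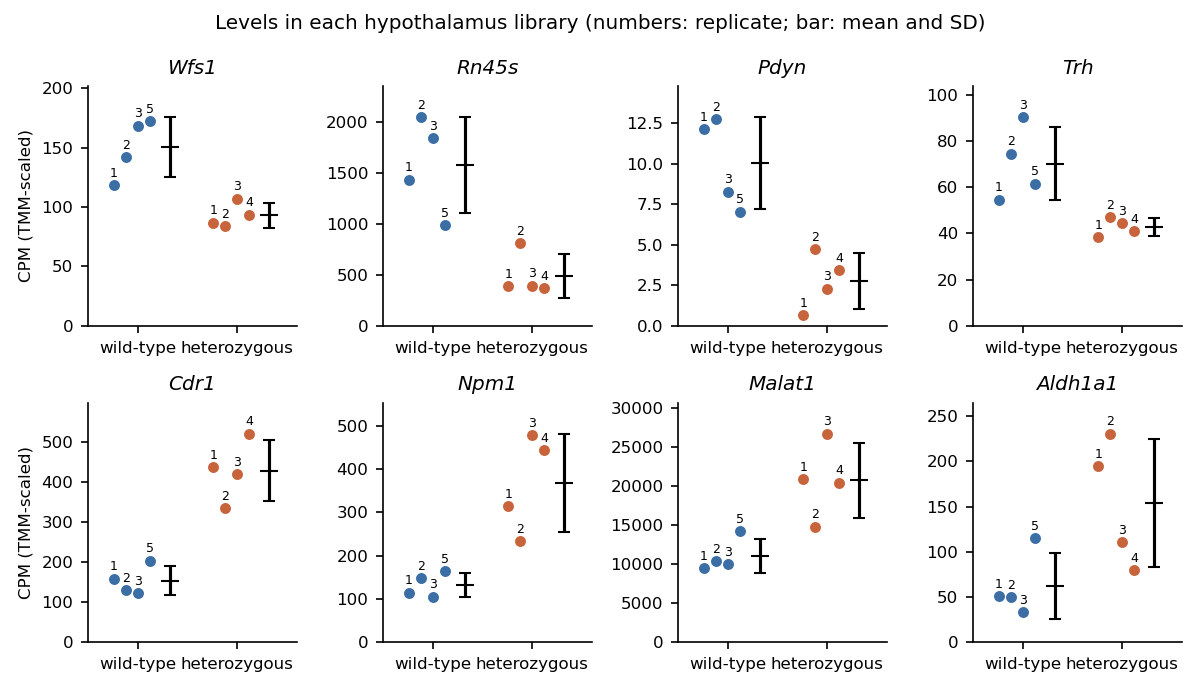
Levels of 8 genes in each library, in TMM-scaled CPM on linear axes that start at 0, with the replicate number above each point and a bar for the mean and SD of the 4 libraries. Wfs1, Rn45s, Pdyn and Trh were lower in every heterozygous library than in any wild-type library, Cdr1, Npm1 and Malat1 were higher in every one, and Aldh1a1 overlapped.

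Across the transcriptome, 382 of 10494 genes tested were called at an adjusted p under 0.05, which is 3.64%. Of these, 269 were higher in heterozygous hypothalamus (2.56% of genes tested) and 113 were lower (1.08%). An unadjusted p under 0.05 was met by 1971 genes (18.8%). The changes were small: 22 genes rose and 13 fell by more than 2-fold, 141 rose and 58 fell by more than 1.5-fold, and the median log2 fold change was 0.60 for the higher and -0.59 for the lower genes. Among all genes tested, 512 (4.88%) had every heterozygous library above every wild-type one and 471 (4.49%) had every one below. Among called genes these were 192 of the 269 higher and 83 of the 113 lower. Called genes were more abundant than most, with a median level of 160 CPM in the higher, 90.5 CPM in the lower and 37.0 CPM in all genes tested. The share over all genes, set beside each list below, was not matched to the level of the list's genes.

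The number of calls changed with the library left out. Each omission also left fewer libraries, and the effect of that was not separated from the effect of the library itself. Leaving out heterozygous replicate 2 raised the count from 382 to 997, and leaving out heterozygous replicate 3 lowered it to 95. The count was 275 without wild-type replicate 1, 167 without wild-type replicate 2, 160 without wild-type replicate 3, 491 without wild-type replicate 5, 153 without heterozygous replicate 1 and 103 without heterozygous replicate 4. In all 8 omissions 65 of the higher and 11 of the lower genes were called. Without wild-type replicate 2 and heterozygous replicate 3, the ends of the first component, 24 genes were called. All 382 kept their direction in each of these fits. In a fit of all 12 libraries, which shares the estimate of spread with the homozygous group, 64 genes were called. Of the called genes named in the text, Wfs1, Rn45s, Cdr1, Npm1, Ncl, Malat1, Ppig, Luc7l3, Prpf38b, Rbm25, Pnn, Eif3a, Hmgn5, Spata9, Ccdc34, Fam160b2, Fam166a, Nefm, Syn1, Chgb, Hsp90b1, Atp6v0a2, Cx3cl1, Zwint, Sqstm1, Scd2 and Bod1l were called in that fit too, and the others were not.

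**Figure D2:**
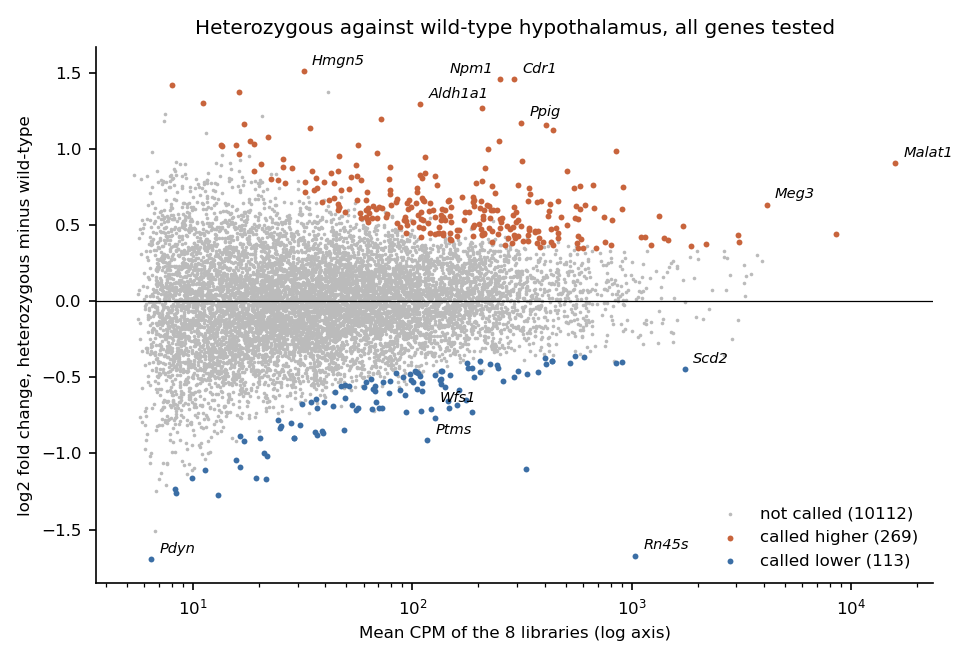
Mean level of each of the 10494 genes over the 8 libraries in CPM (log axis) against its log2 fold change, heterozygous minus wild-type, with the 269 genes called higher in orange and the 113 called lower in blue. Most called genes lie within 1 log2 unit of 0, and Rn45s and Pdyn have the most negative values among them.

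The genes called higher had adenine-rich transcripts and those called lower had adenine-poor ones. The median adenine share of the transcript was 29.0% in the higher genes, 22.4% in the lower genes and 25.6% in all genes tested. Genes were put into 10 equal bins by adenine share. In the bin with the least adenine, 0.192% were called higher and 3.46% lower. In the bin with the most, 9.62% were called higher and 0.0962% lower. Stretches of 90 coding bases within an exon were searched from codon starts only, in the longest protein-coding transcript of each gene. The most adenine-rich of these reached 50% adenine in 86 of 262 higher genes (32.8%), in 0 of 107 lower genes and in 602 of all 10150 genes with such a stretch (5.93%).

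The stretches below are shown because they make that contrast visible. Each is the most adenine-rich of the 90-base stretches searched in its gene. It is read 5′ to 3′ on the gene's own strand from GENCODE M21 transcripts (mm10), with every adenine in capitals. The first 4 genes were higher ones and the last 4 lower ones, taken by smallest p among the genes considered that had such a stretch. Some genes, Cdr1 among them, were left out of this choice for reasons other than p. The genes shown are thus not strictly those with the smallest p.
Npm1: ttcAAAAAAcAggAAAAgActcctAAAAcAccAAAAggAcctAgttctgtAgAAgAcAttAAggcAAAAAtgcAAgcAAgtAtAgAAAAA
Ppig: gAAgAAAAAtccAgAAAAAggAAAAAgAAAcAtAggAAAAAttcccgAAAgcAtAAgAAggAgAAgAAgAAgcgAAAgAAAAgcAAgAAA
Luc7l3: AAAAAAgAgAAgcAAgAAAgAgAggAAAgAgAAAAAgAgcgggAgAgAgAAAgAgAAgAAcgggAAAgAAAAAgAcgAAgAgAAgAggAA
Ccdc34: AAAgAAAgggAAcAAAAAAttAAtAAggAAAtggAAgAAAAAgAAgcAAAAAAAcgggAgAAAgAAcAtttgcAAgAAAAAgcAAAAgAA
Zwint: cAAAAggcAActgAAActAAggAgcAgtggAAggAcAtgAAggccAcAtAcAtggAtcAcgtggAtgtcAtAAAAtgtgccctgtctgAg
Wfs1: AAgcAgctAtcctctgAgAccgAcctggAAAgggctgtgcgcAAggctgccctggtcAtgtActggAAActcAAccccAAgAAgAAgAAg
Sqstm1: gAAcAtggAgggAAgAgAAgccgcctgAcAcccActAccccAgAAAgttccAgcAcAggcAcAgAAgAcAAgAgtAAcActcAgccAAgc
Cx3cl1: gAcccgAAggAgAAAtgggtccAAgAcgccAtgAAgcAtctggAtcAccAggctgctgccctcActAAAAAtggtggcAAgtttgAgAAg
The adenine share of these stretches was 51.1% in Npm1 (chr11:33156003-33156092), 61.1% in Ppig (chr2:69741602-69741691), 60.0% in Luc7l3 (chr11:94297030-94297119) and 63.3% in Ccdc34 (chr2:110040580-110040669). It was 35.6% in Zwint (chr10:72656532-72656621), 30.0% in Wfs1 (chr5:36973786-36973875), 37.8% in Sqstm1 (chr11:50202922-50203011) and 31.1% in Cx3cl1 (chr8:94779594-94779683). Every stretch lies within an exon of the protein-coding transcript.

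Single libraries also differed in how their counts followed adenine. The slope of a gene's log2 level on its transcript's adenine share, per percentage point, was 0.00687, -0.0142, -0.0374 and -0.0154 in wild-type replicates 1, 2, 3 and 5. It was 0.0244, -0.0129, 0.0303 and 0.0182 in heterozygous replicates 1 to 4. Heterozygous replicate 2 thus lay within the wild-type range and the other heterozygous libraries above it. With each library's dependence on GC and adenine removed as an offset, 254 genes were called (185 higher and 69 lower), of which 149 higher and 51 lower were among the original calls. The median adenine share was then 26.4% in the higher and 24.4% in the lower genes. With a composition score per library as a covariate, 5 genes were called: Aldh1a1, Cdr1, Npm1 and Sgk1 higher and Rn45s lower. What set these slopes was not tested, and slope and genotype cannot be fully told apart in 8 libraries.

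**Figure D3:**
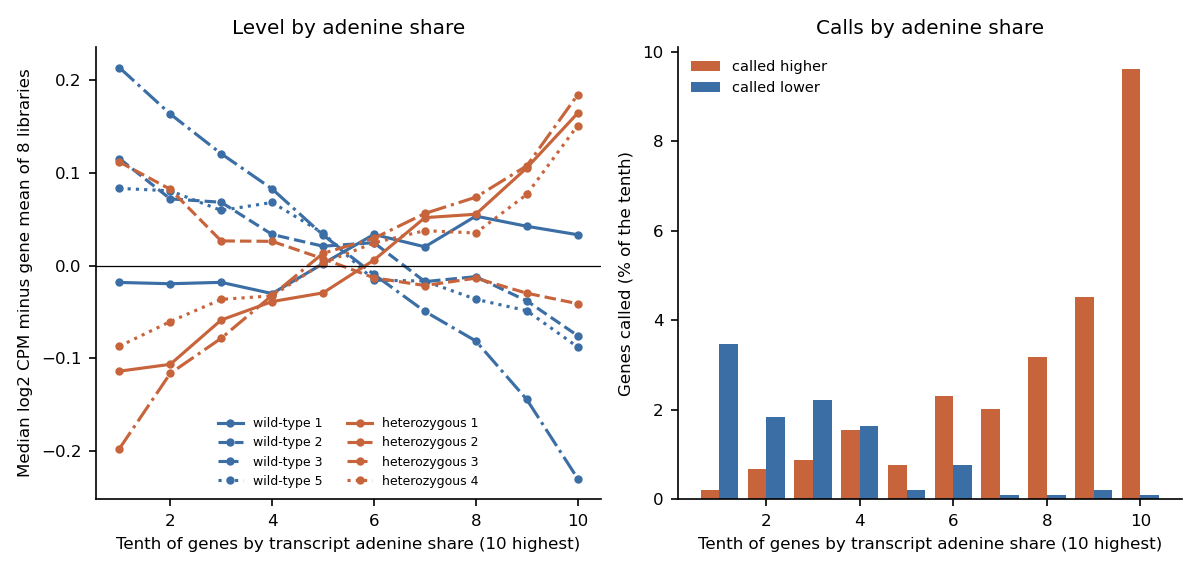
Left, the median log2 level of each library relative to the mean of the 8 libraries, for 10 equal bins of genes ordered by transcript adenine share. Right, the percentage of each bin called higher (orange) or lower (blue). Heterozygous replicates 1, 3 and 4 rise with adenine, heterozygous replicate 2 follows the wild-type libraries 2 and 5, and calls shift from lower to higher, from 3.46% lower in the bin with the least adenine to 9.62% higher in the bin with the most.

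Among the lists with 5 or more members tested, pre-mRNA splicing had the largest share of calls. The lists were chosen with earlier results of these data known, so this share only describes the list. Of 23 splicing factors and RNA-binding proteins tested, 8 were higher and 0 lower (34.8%, against 3.64% of all genes tested), with a median log2 fold change of 0.31 against -0.0011 for all genes. Ppig, a nuclear cyclophilin with an arginine-serine-rich tail, was at 218, 185, 148 and 216 CPM in wild-type and 411, 250.3, 575 and 508 CPM in heterozygous mice. Its groups did not overlap, with heterozygous replicate 2 the lowest of its group (log2 fold change 1.17 ± 0.17 SE, adjusted p = 1.23e-04). Luc7l3, a partner of the U1 snRNP, was at 227, 231, 209 and 329 CPM in wild-type and 501, 328, 767 and 647 CPM in heterozygous mice. There, heterozygous replicate 2 fell just below wild-type replicate 5 (log2 fold change 1.16 ± 0.17 SE, adjusted p = 1.76e-04).

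Prpf38b, a pre-mRNA processing factor, was at 90.2, 90.2, 98.5 and 201 CPM in wild-type and 239.7, 173, 411 and 359 CPM in heterozygous mice. Wild-type replicate 5 was above the other wild-type libraries and above heterozygous replicate 2 (log2 fold change 1.27 ± 0.21 SE, adjusted p = 7.79e-04). Rbm25, an RNA-binding regulator of splice-site choice, was at 200.1, 195, 195 and 282 CPM in wild-type and 335, 244, 603 and 486 CPM in heterozygous mice (log2 fold change 0.92 ± 0.18 SE, adjusted p = 0.00265), again with wild-type replicate 5 above heterozygous replicate 2. The other called members were Sf3b1, a core part of the U2 snRNP (0.47, adjusted p = 0.0182), Hnrnpa2b1, which binds nascent RNA (0.42, adjusted p = 0.0309), the kinase Prpf4b (0.44, adjusted p = 0.0338) and the SR-protein kinase Clk1 (0.45, adjusted p = 0.0352), with the log2 fold change given first. Sf3b1 was called in 4 of the 8 omissions and with the composition offset, and the other 3 in 2 omissions each and not with the offset. Ppig, Luc7l3, Prpf38b and Rbm25 were called in all 8 omissions and with the composition offset, where their log2 fold changes were 0.96, 1.02, 1.12 and 0.63. With the composition score as a covariate none of them was called. There the values were 0.53, 0.63, 0.78 and 0.42 (adjusted p = 0.298, 0.324, 0.404 and 0.604).

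Npm1 and Ncl, of the nucleolus, rose, and the counts under Rn45s, a ribosomal RNA entry, fell. Npm1, nucleophosmin, a chaperone of ribosome assembly, rose 2.74-fold. It was at 114, 148, 105 and 164 CPM in wild-type and 314, 234, 478 and 443 CPM in heterozygous mice. Every heterozygous library was above every wild-type one (log2 fold change 1.46 ± 0.17 SE, adjusted p = 2.34e-06). Npm1 has processed pseudogenes in the genome, and how the counting treated reads shared with them is not given in the sources used here. Ncl, nucleolin, which binds pre-rRNA, was at 345, 328, 393 and 550.5 CPM in wild-type and 661, 574, 733 and 756 CPM in heterozygous mice, without overlap (log2 fold change 0.74 ± 0.13 SE, adjusted p = 0.00104). Of 18 nucleolar and rRNA-synthesis genes tested, these 2 were higher, 0 were lower (11.1% called, against 3.64% of all genes tested) and the median was 0.08. The assembly factor Nop56 did not pass the test (-0.53, adjusted p = 0.0987; adjusted p = 0.0475 with the composition offset), nor did the RNA polymerase I subunit Polr1b (-0.87, adjusted p = 0.201).

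Rn45s, the entry for the 45S precursor of ribosomal RNA, had the smallest p of the genes called lower. Its level was 1433, 2043, 1843 and 988 CPM in wild-type and 390.5, 810.1, 396 and 367 CPM in heterozygous mice. The lowest wild-type library, replicate 5, was still above the highest heterozygous one, replicate 2, which stood well above the rest of its group. The reduction was 3.18-fold (log2 fold change -1.67 ± 0.19 SE, adjusted p = 2.34e-06), and Rn45s was called in all 8 omissions, with the composition offset and with the score covariate (-1.21, adjusted p = 0.00238). Rn45s was not matched to the GENCODE annotation, so no position is given, and as a repeated locus its count depends on how reads with several matches were handled. Whether its reads came from the precursor or from mature ribosomal RNA was not tested.

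The noncoding RNAs Malat1, Meg3, Gas5 and Snhg1 were called higher. They were picked after their values were seen, and how many noncoding RNAs were tested in all was not counted. Malat1, a nuclear-retained RNA of splicing speckles, was at 9499, 10429, 10046 and 14254 CPM in wild-type and 20941, 14822, 26708 and 20454 CPM in heterozygous mice, without overlap (log2 fold change 0.91 ± 0.13 SE, adjusted p = 1.23e-04). Meg3, a maternally expressed imprinted RNA, was at 2670.3, 2724, 3573 and 3945 CPM in wild-type and 5813, 3830.4, 5229.5 and 5186 CPM in heterozygous mice (log2 fold change 0.63 ± 0.12 SE, adjusted p = 0.00265), and its lowest heterozygous library, replicate 2, was below wild-type replicate 5. Gas5 (0.74, adjusted p = 0.011) and Snhg1 (0.96, adjusted p = 0.0285), which host small nucleolar RNAs in their introns, were higher without overlap. Malat1 and Meg3 were called in all 8 omissions. Gas5 was not called without heterozygous replicate 1 (adjusted p = 0.0699), and Snhg1 was not called in 6 omissions (without wild-type replicate 2, 3 or 5 or without heterozygous replicate 1, 3 or 4, adjusted p 0.0603 to 0.107).

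Cdr1 had the smallest p of all named genes. Its level was 159, 129, 123 and 204 CPM in wild-type and 437, 335, 419 and 519.8 CPM in heterozygous mice, and every heterozygous library was above every wild-type one. The rise was 2.75-fold (log2 fold change 1.46 ± 0.14 SE, adjusted p = 1.19e-07). It held in every omission and grew slightly with the composition offset (1.54). Cdr1 is a single-exon gene on the X chromosome (chrX:61184005-61185558), and all 1554 of its bases are also exon of C230004F18Rik on the opposite strand, the locus that gives rise to a circular antisense RNA rich in microRNA sites. The strand of the counts is not given in the sources used here, so the sense and antisense RNA cannot be told apart. C230004F18Rik, counted under its own name, was at 15.9, 13.7, 6.77 and 11.5 CPM in wild-type and 18.6, 15.003, 13.8 and 10.3 CPM in heterozygous mice (0.28, adjusted p = 0.649).

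The other genes with the largest rises had varied roles. Hmgn5, a nucleosome-binding protein of the X chromosome that opens chromatin, had the largest fold among called genes named here, 2.85-fold. It was at 9.10, 14.7, 13.5 and 26.3 CPM in wild-type and 48.5, 25.3, 71.2 and 46.5 CPM in heterozygous mice (log2 fold change 1.51 ± 0.28 SE, adjusted p = 0.00201), and wild-type replicate 5 was above heterozygous replicate 2. Spata9 was at 9.10, 7.84, 6.77 and 11.5 CPM in wild-type and 19.3, 19.7, 28.3 and 27.4 CPM in heterozygous mice (log2 fold change 1.38 ± 0.27 SE, adjusted p = 0.00288) and Ccdc34, a coiled-coil protein, at 37.1, 40.2, 42.1 and 51.9 CPM in wild-type and 102, 68.2, 134 and 98.5 CPM in heterozygous mice (log2 fold change 1.20 ± 0.18 SE, adjusted p = 1.85e-04), both without overlap. Fam160b2 also rose without overlap (1.14, adjusted p = 0.00312). All of these were called in every omission and with the composition offset. Fam160b2 has a transcript of only 21.5% adenine, below the median of all genes.

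Less stable rises were seen in 4 further genes of the most positive group. Fam166a, at 3.79, 2.94, 3.76 and 6.41 CPM in wild-type and 10.6, 11.6, 12.2 and 13.0 CPM in heterozygous mice, rose 2.67-fold, but its call ended without wild-type replicate 1, 2 or 3 or without heterozygous replicate 3 or 4 (adjusted p 0.0539 to 0.0758). Bnc2, a zinc-finger transcription factor, was at 5.31, 5.88, 7.52 and 7.05 CPM in wild-type and 17.3, 19.7, 16.1 and 10.3 CPM in heterozygous mice (1.30, adjusted p = 0.0146), and the call ended without heterozygous replicate 1 or 3 (adjusted p 0.0514 to 0.053). Ndufb2, a subunit of respiratory complex I, was at 16.7, 2.94, 16.5 and 18.6 CPM in wild-type and 25.9, 32.1, 36.7 and 26.7 CPM in heterozygous mice (1.08, adjusted p = 0.0208), with wild-type replicate 2 far below its group, and the call ended without wild-type replicate 2 or without heterozygous replicate 3 (adjusted p 0.0611 to 0.0995). Wdr55, a WD-repeat protein of the nucleolus, was higher (1.17, adjusted p = 0.0276) but not called in 6 omissions (without wild-type replicate 1, 2 or 3 or without heterozygous replicate 1, 3 or 4, adjusted p 0.0567 to 0.144).

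**Figure D4:**
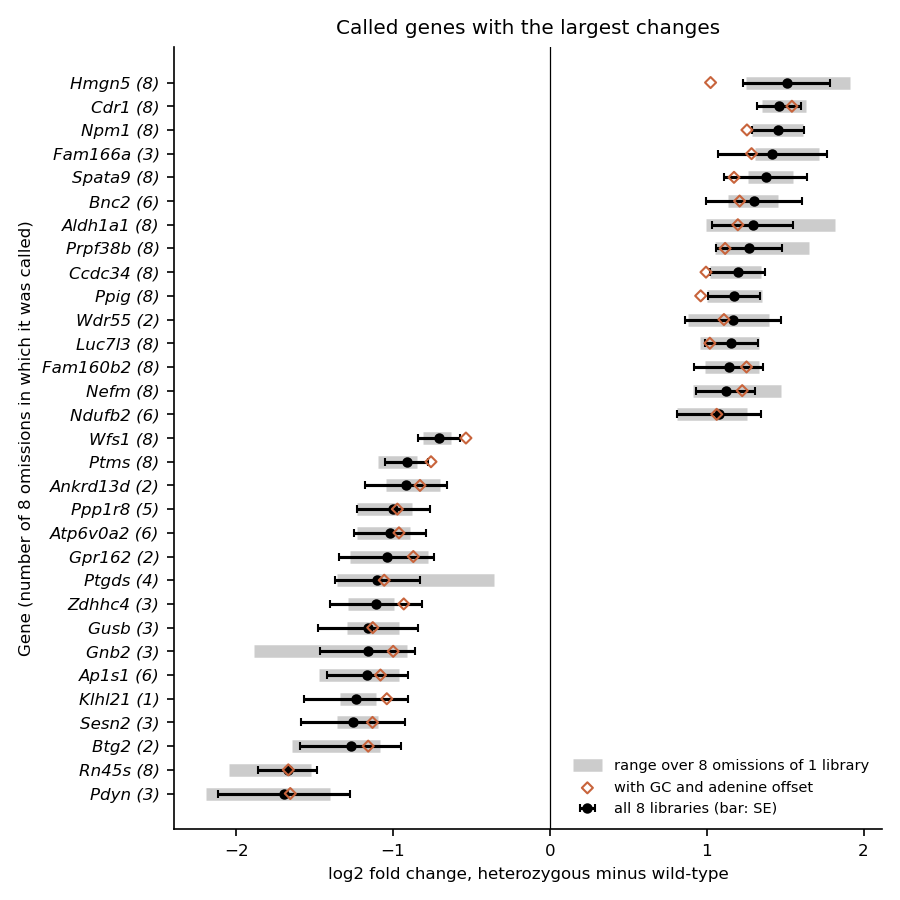
Log2 fold change of Wfs1 and of the 15 called genes with the largest change in each direction. Points are the fit of all 8 libraries with the SE as a bar, grey bands the range over the 8 fits that leave out a library, and open diamonds the fit with the GC and adenine offset. The number beside each gene counts the omissions in which it was called, from 8 for Rn45s, Wfs1 and Cdr1 to 1 for Klhl21.

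The 3 neurofilament subunits and a synaptic vesicle gene were called higher. Nefm, the medium neurofilament subunit, was at 235, 209.8, 203 and 449 CPM in wild-type and 509, 400.4, 837 and 668 CPM in heterozygous mice (log2 fold change 1.12 ± 0.19 SE, adjusted p = 9.02e-04), with wild-type replicate 5 apart from its group and above heterozygous replicate 2. Nefl, the light subunit (0.55, adjusted p = 0.0117), and Nefh, the heavy subunit (0.58, adjusted p = 0.0147), were also higher. Nefm and Nefl share 1108 exon bases on opposite strands in the annotation, so some of their reads cannot be told apart. Nefl and Nefh lost their calls without wild-type replicate 3 or without heterozygous replicate 3 or 4 (adjusted p 0.0653 to 0.0715 and 0.0716 to 0.109), and Nefm did not lose its call in any omission. With the composition offset the call of Nefh ended (0.42, adjusted p = 0.0625). Syn1, synapsin, which tethers synaptic vesicles, was at 662, 744, 593 and 655 CPM in wild-type and 1031, 847, 947 and 1022 CPM in heterozygous mice, without overlap (log2 fold change 0.54 ± 0.10 SE, adjusted p = 0.00265), and was called in all 8 omissions. Nefl, Nefh and Syn1 were picked after their values were seen.

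In the secretory granule list, 3 of 20 genes were higher and 0 lower (15% called, against 3.64% of all genes tested), with a median of -0.03. Chgb, secretogranin B, a packing protein of granule cores, was at 593, 518, 645 and 959 CPM in wild-type and 1085, 877, 1376 and 1241 CPM in heterozygous mice (log2 fold change 0.75 ± 0.14 SE, adjusted p = 0.00263), with heterozygous replicate 2 below wild-type replicate 5. Scg2, secretogranin II (0.38, adjusted p = 0.0409), and Syt4, a synaptotagmin of peptide vesicles (0.41, adjusted p = 0.0212), rose less. The convertases and carboxypeptidase that cut prohormones did not pass the test, Cpe at a log2 fold change of 0.16 and Pcsk1 and Pcsk2 at -0.05 and 0.07. Chgb was called in all 8 omissions. The call of Scg2 ended without wild-type replicate 1, 3 or 5 or without heterozygous replicate 1, 3 or 4 (adjusted p 0.0624 to 0.236), that of Syt4 ended without wild-type replicate 2 or 3 or without heterozygous replicate 1, 3 or 4 (adjusted p 0.0674 to 0.13), and with the composition offset Scg2 was 0.19 (adjusted p = 0.295) and Syt4 0.31 (adjusted p = 0.0636).

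Among 19 neuropeptide precursors tested, 2 were lower, 1 was higher (15.8% called, against 3.64% of all genes tested) and the median was 0.07. Pdyn, which encodes prodynorphin, the source of the opioid dynorphins, fell 3.23-fold. Its level was low, 12.1, 12.7, 8.27 and 7.05 CPM in wild-type and 0.664, 4.72, 2.296 and 3.42 CPM in heterozygous mice, without overlap, from raw counts of 16, 13, 11 and 11 in wild-type and 1, 11, 3 and 5 in heterozygous libraries (log2 fold change -1.69 ± 0.42 SE, adjusted p = 0.021). Trh, the precursor of thyrotropin-releasing hormone, was at 54.6, 74.5, 90.2 and 61.5 CPM in wild-type and 38.5, 47.2, 44.4 and 41.0 CPM in heterozygous mice. The heterozygous libraries were close together and all below the wild-type ones (log2 fold change -0.70 ± 0.17 SE, adjusted p = 0.0146).

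Sst, the precursor of somatostatin, which restrains growth hormone release, was at 73.5, 191, 132 and 183 CPM in wild-type and 252, 182, 259 and 241 CPM in heterozygous mice. Its groups overlapped, wild-type replicate 1 lying far below the others (log2 fold change 0.69 ± 0.17 SE, adjusted p = 0.0227). Avp, vasopressin, was at 10.6, 17.6, 66.2 and 34.0 CPM in wild-type and 15.3, 33.4, 13.8 and 12.3 CPM in heterozygous mice and did not pass the test (log2 fold change -0.72, 95% interval -1.42 to -0.01, adjusted p = 0.255), though it was called when low-count genes were not filtered out (adjusted p = 0.0343). Oxt, oxytocin, was at 22.7, 24.5, 36.8 and 45.5 CPM in wild-type and 33.2, 34.3, 16.1 and 35.6 CPM in heterozygous mice (-0.12, adjusted p = 0.83, 95% interval -0.59 to 0.34). Pmch, the melanin-concentrating hormone precursor, did not pass either (0.26, adjusted p = 0.279). Of the precursors left out by the filter on low counts, Kiss1 and Npw had no count. Of 21 neuropeptide receptors tested none passed, against 3.64% of all genes tested, with Npy2r nearest (0.46, adjusted p = 0.0871).

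These 3 neuropeptide calls were not stable to the choice of libraries. The call of Pdyn ended without wild-type replicate 1 or 2 or without heterozygous replicate 1, 3 or 4 (adjusted p 0.0621 to 0.0943), that of Trh without wild-type replicate 3 or without heterozygous replicate 1 or 4 (adjusted p 0.0645 to 0.101) and that of Sst without wild-type replicate 1 or 3 or without heterozygous replicate 1, 3 or 4 (adjusted p 0.0608 to 0.108). All 3 were called with the composition offset, at -1.65, -0.67 and 0.75 on the log2 scale. DESeq2 did not call Sst (adjusted p = 0.168) and called Trh (adjusted p = 0.00908), and gave no adjusted p for Pdyn.

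In the growth hormone, IGF, insulin and leptin list, 2 of 16 genes were lower and 0 higher (12.5% called, against 3.64% of all genes tested). Igfbp5, a binding protein of insulin-like growth factors, was at 315, 424, 309.7 and 310.2 CPM in wild-type and 214, 256, 249.5 and 238 CPM in heterozygous mice, without overlap, wild-type replicate 2 being the highest (log2 fold change -0.50 ± 0.12 SE, adjusted p = 0.0126). Stat5b, a transcription factor downstream of the growth hormone receptor, was lower without overlap (-0.64, adjusted p = 0.0456). The receptor Ghr did not pass the test (0.34, adjusted p = 0.284), nor did Igf1 (0.38, adjusted p = 0.433) or the insulin receptor substrate Irs2 (-0.46, adjusted p = 0.171). Calls ended for Igfbp5 without wild-type replicate 2 or without heterozygous replicate 1 or 4 (adjusted p 0.0581 to 0.0775) and for Stat5b without wild-type replicate 1, 2 or 3 or without heterozygous replicate 1, 3 or 4 (adjusted p 0.0638 to 0.215). The composition offset also ended the call of Stat5b (-0.59, adjusted p = 0.0658).

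In the thyroid hormone and retinoid list, 2 of 14 genes were higher and 0 lower (14.3% called, against 3.64% of all genes tested). Aldh1a1, which makes retinoic acid from retinal, rose 2.45-fold. It was at 50.8, 50.0, 33.1 and 115 CPM in wild-type and 195, 231, 111 and 80.0 CPM in heterozygous mice. The spread was wide in both groups, heterozygous replicate 4 falling below wild-type replicate 5, and the gene was called in all 8 omissions and in both composition fits (log2 fold change 1.29 ± 0.26 SE, adjusted p = 0.004). It was not called by DESeq2 (adjusted p = 0.102) or with all 12 libraries (adjusted p = 0.0514). Klf9, a zinc-finger factor induced by thyroid hormone and glucocorticoids, was higher without overlap (0.55, adjusted p = 0.0146), and its call ended without wild-type replicate 3 or without heterozygous replicate 3 or 4 (adjusted p 0.0693 to 0.107). The thyroid hormone receptor Thra did not pass (-0.47, adjusted p = 0.0658; limma-voom called it at adjusted p = 0.0178), nor did the deiodinase Dio2 (0.41, adjusted p = 0.404).

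Aldh1a1 also marks some dopamine neurons, as does Slc6a3, the dopamine transporter. Slc6a3 had a wide spread, 10.6, 37.2, 6.01 and 41.0 CPM in wild-type and 73.1, 119.6, 36.0 and 5.47 CPM in heterozygous mice, and did not pass the test (1.37, adjusted p = 0.0781). It was called when low-count genes were not filtered out (adjusted p = 3.17e-10). Slc18a2, the vesicular monoamine transporter, was at 108, 96.1, 69.2 and 104 CPM in wild-type and 162, 173, 159 and 93.0 CPM in heterozygous mice (log2 fold change 0.64 ± 0.16 SE, adjusted p = 0.0194). For these transporters heterozygous replicate 2 was the highest library of all and heterozygous replicate 4 the lowest of its group, as they were in Aldh1a1. Th, the rate-limiting enzyme of dopamine synthesis, was at 36.4, 68.6, 72.9 and 45.5 CPM in wild-type and 63.8, 106, 32.9 and 23.3 CPM in heterozygous mice (0.10, adjusted p = 0.893, 95% interval -0.46 to 0.66), and Ddc at 31.1, 43.1, 33.1 and 59.6 CPM in wild-type and 61.1, 60.9, 42.1 and 27.4 CPM in heterozygous mice (0.21, adjusted p = 0.656). Of 13 monoamine genes tested, Slc18a2 was the only edgeR call (7.69%, against 3.64% of all genes tested), and it ended without wild-type replicate 2 or 3 or without heterozygous replicate 1 or 3 (adjusted p 0.0504 to 0.101). Whether the dissections held different numbers of dopamine cells was not tested, and in bulk RNA the number of cells and RNA per cell cannot be told apart.

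Wolframin is known to act in the unfolded protein response. Of 16 sensors and transcription factors of that response, 0 were called by edgeR, against 3.64% of all genes tested. At that share a list this short would hold few or no calls. An unadjusted p under 0.05 was met by 2, against 18.8% of all genes tested. The median log2 fold change was -0.20, and 5 of the 16 were positive. Summed over the list's 20 genes, levels were 770 to 821 CPM in wild-type and 719 to 754 CPM in heterozygous libraries, without overlap. The sensors were Ern1 at 0.28 (95% interval -0.35 to 0.91), Eif2ak3 at -0.22 (-0.65 to 0.21) and Atf6 at 0.18 (-0.07 to 0.44) on the log2 scale. Ddit3, which encodes the stress factor CHOP, was at 12.1, 7.84, 12.0 and 11.5 CPM in wild-type and 9.96, 12.4, 12.2 and 13.0 CPM in heterozygous mice (log2 fold change 0.11, 95% interval -0.46 to 0.68). The factors Atf4 (0.20, -0.08 to 0.47) and Xbp1 (-0.17, -0.44 to 0.09) did not pass.

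Among 19 chaperones and disulfide isomerases of the endoplasmic reticulum, 2 were called higher and 0 lower by edgeR (10.5% called, against 3.64% of all genes tested). Hsp90b1, the lumenal Hsp90 protein, was at 579, 655, 739.8 and 893 CPM in wild-type and 1059, 916, 1194 and 1209.8 CPM in heterozygous mice, without overlap (log2 fold change 0.61 ± 0.12 SE, adjusted p = 0.00283), and was called in all 8 omissions. With the composition offset it was 0.36 (adjusted p = 0.0589). Pdia3, a disulfide isomerase of glycoproteins, was higher without overlap (0.52, adjusted p = 0.0139), and its call ended without wild-type replicate 3 or without heterozygous replicate 3 or 4 (adjusted p 0.0603 to 0.119). Hspa5, or BiP, the main lumenal Hsp70, was at 301, 369.5, 432 and 359 CPM in wild-type and 369, 379, 487 and 497 CPM in heterozygous mice and did not pass (0.24, adjusted p = 0.266). Hyou1 (-0.45, adjusted p = 0.0502) and Txndc5 (-0.67, adjusted p = 0.0544) lay just outside the threshold of the edgeR test. Hyou1 was called lower by DESeq2 (adjusted p = 0.0414) and both by limma-voom (adjusted p = 0.0196 and 0.0295). Without the filter on low counts edgeR called both lower too (adjusted p = 0.01 and 0.0366). EdgeR also called Hyou1 lower with RLE scaling, upper-quartile scaling and the stricter filter (adjusted p = 0.0498, 0.0373 and 0.0437). Hyou1 was not called with the composition offset, the composition score or all 12 libraries (adjusted p = 0.0649, 0.612 and 0.267).

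Of 16 genes of endoplasmic-reticulum-associated degradation, Derl1 alone was called (6.25%, against 3.64% of all genes tested). Derl1, a channel component through which misfolded proteins leave, was at 36.4, 35.3, 39.1 and 45.5 CPM in wild-type and 23.2, 20.1, 19.1 and 27.4 CPM in heterozygous mice, without overlap (log2 fold change -0.81 ± 0.19 SE, adjusted p = 0.0146). Its call ended without heterozygous replicate 3 (adjusted p = 0.0663) and with the composition offset (-0.65, adjusted p = 0.0597). The ubiquitin ligase Syvn1 (-0.30, adjusted p = 0.296) did not pass.

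Among 18 genes of endoplasmic reticulum calcium and wolframin's binding partners, 3 were higher and 0 lower (16.7% called, against 3.64% of all genes tested). Calm2, a calmodulin gene, was at 421, 306, 274 and 316 CPM in wild-type and 556, 407, 559.5 and 538 CPM in heterozygous mice (log2 fold change 0.64 ± 0.12 SE, adjusted p = 0.00288), heterozygous replicate 2 lying just below wild-type replicate 1. Atp1b1, the sodium pump subunit that binds wolframin, was at 2478, 2337, 2721 and 2892 CPM in wild-type and 3365, 3191, 3742 and 3776 CPM in heterozygous mice, without overlap (log2 fold change 0.43 ± 0.10 SE, adjusted p = 0.00959). The third was Slc18a2, described above. Cisd2, mutated in a related syndrome, did not pass (-0.07, adjusted p = 0.884, 95% interval -0.46 to 0.32). Calm2 was called in all 8 omissions, and Atp1b1 lost its call without heterozygous replicate 3 or 4 (adjusted p 0.0552 to 0.0672).

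The proton pump that acidifies granules and lysosomes had 2 of 16 genes lower and 0 higher by edgeR (12.5% called, against 3.64% of all genes tested). Atp6v0a2, a membrane subunit, was at 27.3, 29.4, 36.8 and 24.4 CPM in wild-type and 12.0, 18.4, 11.5 and 14.4 CPM in heterozygous mice, without overlap (log2 fold change -1.02 ± 0.23 SE, adjusted p = 0.0106). Its neuronal counterpart Atp6v0a1 was lower by 1.33-fold (-0.41, adjusted p = 0.0275). Other subunits did not pass the edgeR test and had values of either sign, Atp6v1b2 at -0.32 and Atp6v1g2 at 0.33. DESeq2 called Atp6v1b2 lower (adjusted p = 0.0186), and limma-voom called Atp6v1b2 lower (adjusted p = 0.0223) and Atp6v1g2 higher (adjusted p = 0.0266). The calls ended for Atp6v0a2 without wild-type replicate 3 or without heterozygous replicate 3 (adjusted p 0.0515 to 0.0646) and for Atp6v0a1 without wild-type replicate 2 or 3 or without heterozygous replicate 1, 3 or 4 (adjusted p 0.0842 to 0.128). Further lysosomal genes called lower, picked after their values were seen, were Mcoln1, a calcium channel (-0.66, adjusted p = 0.0462), Clcn6, a chloride-proton exchanger (-0.60, adjusted p = 0.0335), Plbd2, a phospholipase-like protein (-0.72, adjusted p = 0.0114), Npc1, which exports cholesterol (-0.48, adjusted p = 0.0334), and the protease Ctsb (-0.36, adjusted p = 0.0405). Of these, each lost its call in 3 to 6 omissions: Plbd2 without wild-type replicate 2 or without heterozygous replicate 1 or 3 (adjusted p 0.0527 to 0.0678), Mcoln1 without wild-type replicate 2 or 3 or without heterozygous replicate 1, 3 or 4 (adjusted p 0.0944 to 0.172), Clcn6 without wild-type replicate 2 or 3 or without heterozygous replicate 1, 3 or 4 (adjusted p 0.122 to 0.138), Npc1 without wild-type replicate 1, 2 or 3 or without heterozygous replicate 1, 3 or 4 (adjusted p 0.0678 to 0.152) and Ctsb without wild-type replicate 2, 3 or 5 or without heterozygous replicate 1, 3 or 4 (adjusted p 0.0501 to 0.167). With the composition offset the calls of Mcoln1 (-0.51, adjusted p = 0.111), Clcn6 (-0.43, adjusted p = 0.113), Plbd2 (-0.53, adjusted p = 0.0589), Npc1 (-0.40, adjusted p = 0.0644) and Atp6v0a1 (-0.29, adjusted p = 0.0787) ended, and that of Ctsb held. How many lysosomal genes were tested in all was not counted.

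Scd2, Scd1 and Srebf2, single genes of lipid synthesis picked after their values were seen, were called lower. Scd2, a desaturase that is abundant in brain, was at 2173, 2167, 1851 and 1839.9 CPM in wild-type and 1478, 1556, 1395 and 1455 CPM in heterozygous mice, without overlap (log2 fold change -0.45 ± 0.09 SE, adjusted p = 0.00676), and was called in all 8 omissions. Scd1 (-0.39, adjusted p = 0.0352) and Srebf2, the regulator of cholesterol synthesis (-0.47, adjusted p = 0.05, under the threshold before rounding), were called, and both calls ended without wild-type replicate 1, 2 or 3 or without heterozygous replicate 1, 3 or 4 (adjusted p 0.0746 to 0.19 for Scd1 and adjusted p 0.055 to 0.184 for Srebf2). With the composition offset the call of Srebf2 ended (-0.31, adjusted p = 0.168). Sqstm1, the autophagy receptor p62, was at 213, 225, 231 and 187 CPM in wild-type and 143, 163, 120.2 and 116 CPM in heterozygous mice, without overlap (log2 fold change -0.65 ± 0.12 SE, adjusted p = 0.00265). Sqstm1 too was called in all 8 omissions and with the composition offset, and 580 of its exon bases overlap Mrnip on the opposite strand. Gclm, for glutathione synthesis, was lower (-0.68, adjusted p = 0.0474) and lost its call in the same omissions as Scd1 (adjusted p 0.0691 to 0.183).

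Ptms, parathymosin, a small acidic nuclear protein, was at 139, 171, 162 and 140.3 CPM in wild-type and 77.0, 104, 65.8 and 72.5 CPM in heterozygous mice. No library of either group reached the other (log2 fold change -0.91 ± 0.14 SE, adjusted p = 2.27e-04), with a call in all 8 omissions. Cx3cl1, fractalkine, the signal from neurons to microglia, was at 190.2, 219.6, 214 and 169 CPM in wild-type and 112, 159.9, 94.9 and 119.7 CPM in heterozygous mice, without overlap (log2 fold change -0.68 ± 0.14 SE, adjusted p = 0.00358), and also held in every omission. It was the sole call among 11 chemokine, complement and microglial-signal genes (9.09%, against 3.64% of all genes tested), and the receptor's gene Cx3cr1 did not pass (0.01, adjusted p = 0.988). Zwint, a kinetochore protein that is abundant in neurons, was at 193, 182, 179 and 160.2 CPM in wild-type and 98.3, 132, 110.2 and 109 CPM in heterozygous mice, without overlap (log2 fold change -0.66 ± 0.12 SE, adjusted p = 0.00229). Its transcript has 30.9% adenine, well above the median of the lower genes, and its log2 fold change with the composition offset was -0.81.

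Most of the remaining large reductions were in genes of low count whose calls ended in some of the omissions of a library. Btg2, an antiproliferative immediate early gene, was at 25.012, 21.6, 17.3 and 10.9 CPM in wild-type and 4.65, 11.1, 9.19 and 4.10 CPM in heterozygous mice (-1.27, adjusted p = 0.0236). Sesn2, a stress-induced regulator of mTORC1, was at 11.4, 8.82, 15.8 and 11.5 CPM in wild-type and 5.31, 5.57, 4.59 and 4.10 CPM in heterozygous mice (-1.26, adjusted p = 0.0286) and Klhl21, an adaptor of a ubiquitin ligase, at 12.1, 9.80, 11.3 and 13.5 CPM in wild-type and 5.31, 5.57, 3.06 and 5.47 CPM in heterozygous mice (-1.23, adjusted p = 0.031), both without overlap. Ap1s1, a clathrin adaptor subunit, was at 30.3, 17.6, 42.1 and 29.5 CPM in wild-type and 13.3, 18.9, 11.5 and 8.21 CPM in heterozygous mice (-1.17, adjusted p = 0.00961). Gnb2, a G-protein beta subunit (-1.16, adjusted p = 0.0267), Gusb, the lysosomal beta-glucuronidase (-1.16, adjusted p = 0.037), Zdhhc4, a palmitoyltransferase (-1.11, adjusted p = 0.0286), the orphan receptor Gpr162 (-1.04, adjusted p = 0.0484), Ppp1r8, a nuclear regulator of protein phosphatase 1 (-1.0, adjusted p = 0.0137), and Ankrd13d (-0.92, adjusted p = 0.0443) were lower too. Ap1s1 was called in 6 of the 8 omissions, Ppp1r8 in 5, Sesn2, Gnb2, Gusb and Zdhhc4 in 3, Btg2, Gpr162 and Ankrd13d in 2 and Klhl21 in 1. Where they were lost, adjusted p ran from 0.0502 for Ppp1r8 to 0.24 for Gpr162. The composition offset ended the calls of Sesn2 (0.0543), Klhl21 (0.0787), Gusb (0.052), Zdhhc4 (0.0808), Gpr162 (0.106) and Ankrd13d (0.0771), with the adjusted p in brackets, and limma-voom did not call Gpr162 (adjusted p = 0.063). None of these 10 calls ended without heterozygous replicate 2, and without wild-type replicate 5 only that of Klhl21 did.

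Ptgds, prostaglandin D2 synthase of glia and meninges, was at 240.3, 241, 331 and 983 CPM in wild-type and 150.1, 298, 218 and 172 CPM in heterozygous mice. Wild-type replicate 5 alone was several times above the other wild-type libraries, and heterozygous replicate 2 was within their range (log2 fold change -1.10 ± 0.27 SE, adjusted p = 0.0194). The call ended without wild-type replicate 5 or without heterozygous replicate 1, 3 or 4 (adjusted p 0.067 to 0.207), and DESeq2 did not call the gene (adjusted p = 0.216). The meningeal genes Dcn and Col1a2, at -0.16 and 0.28, did not pass, and summed meningeal markers were 36.8 to 76.3 CPM in wild-type and 36.2 to 48.2 CPM in heterozygous libraries. Their part in the Ptgds result was not tested.

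**Figure D5:**
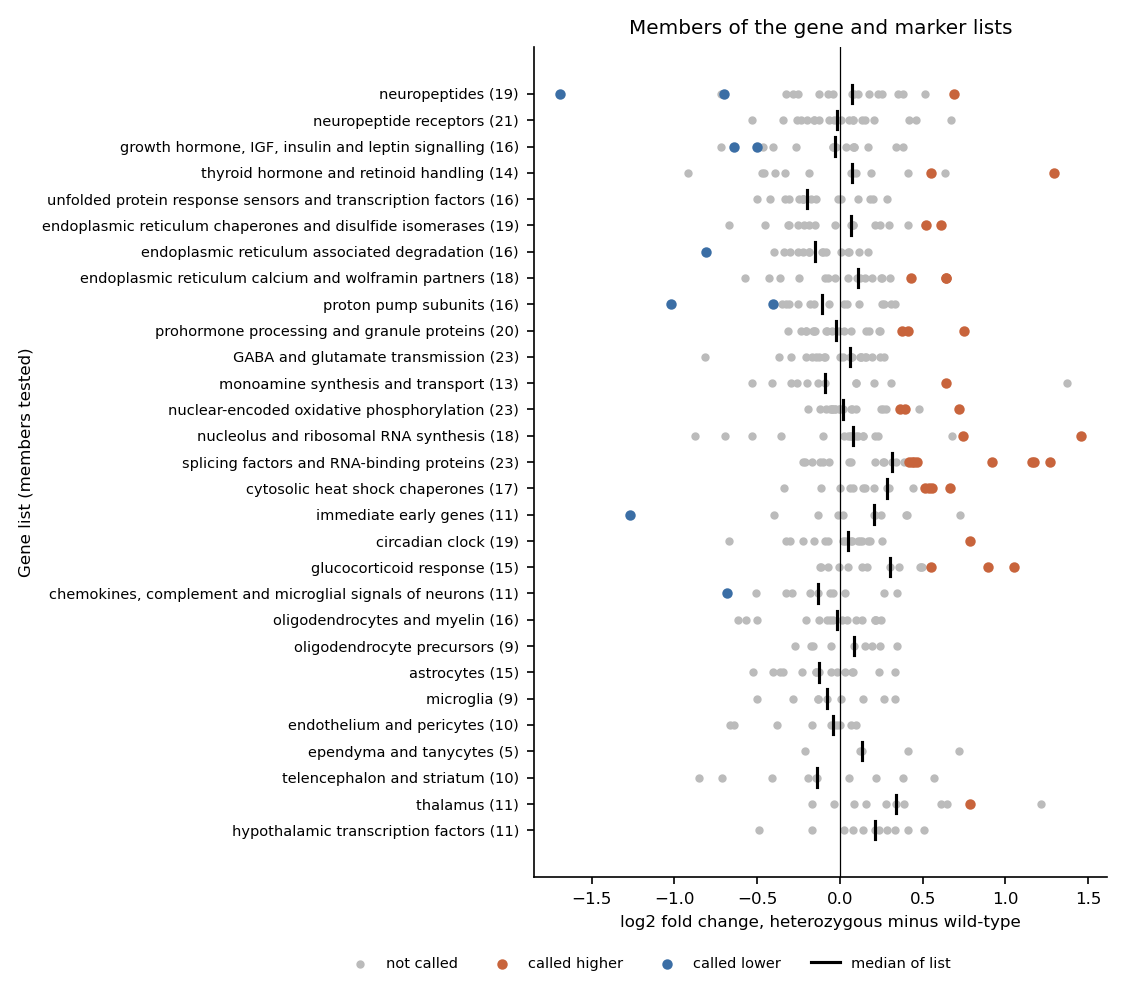
Log2 fold change of each tested member of the gene lists (upper rows) and marker lists (lower rows) with 5 or more members tested, with called genes in colour and a bar at the list's median. Splicing factors hold 8 called genes, all higher, while the lists of oligodendrocytes, astrocytes, microglia, unfolded protein response sensors and neuropeptide receptors hold none. Among all genes tested 3.64% were called.

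Cytosolic heat shock chaperones had 4 of 17 members higher and 0 lower (23.5% called, against 3.64% of all genes tested, median 0.29). Hspa4, an Hsp110-family nucleotide exchange factor, was at 482, 440.1, 421 and 513 CPM in wild-type and 647, 582, 778 and 698 CPM in heterozygous mice, without overlap (log2 fold change 0.54 ± 0.11 SE, adjusted p = 0.00358). Hsph1, of the same family (0.56, adjusted p = 0.0139), Hsp90aa1, the inducible cytosolic Hsp90 (0.67, adjusted p = 0.00911), and the co-chaperone Dnaja1 (0.51, adjusted p = 0.0417) were higher without overlap. Hspa4 was called in all 8 omissions. The others lost their calls, Hsph1 without wild-type replicate 1 or without heterozygous replicate 3 or 4 (adjusted p 0.0543 to 0.121), Hsp90aa1 without heterozygous replicate 3 or 4 (adjusted p 0.0502 to 0.082) and Dnaja1 without wild-type replicate 1, 2 or 3 or without heterozygous replicate 1, 3 or 4 (adjusted p 0.0619 to 0.167). The composition offset ended the calls of Hsp90aa1 (0.47, adjusted p = 0.0542) and Dnaja1 (0.38, adjusted p = 0.106), and upper-quartile scaling that of Dnaja1 (adjusted p = 0.0503).

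Glucocorticoid-responsive genes had 3 of 15 members higher and none lower (20% called, against 3.64% of all genes tested, median 0.30). Sgk1, a kinase induced by glucocorticoids, was at 28.8, 34.3, 33.8 and 57.7 CPM in wild-type and 58.4, 86.6, 58.9 and 85.5 CPM in heterozygous mice. Heterozygous replicates 1 and 3 were only just above wild-type replicate 5 (log2 fold change 0.89 ± 0.19 SE, adjusted p = 0.00683), with a call in all 8 omissions. Hif3a was at 12.1, 12.7, 16.5 and 7.05 CPM in wild-type and 15.9, 29.6, 13.8 and 38.3 CPM in heterozygous mice (1.05, adjusted p = 0.0444), and its call ended without wild-type replicate 1, 2 or 5 or without heterozygous replicate 2 or 4 (adjusted p 0.0705 to 0.213). Hif3a was also not called by limma-voom (adjusted p = 0.0641), with upper-quartile scaling (adjusted p = 0.0524) or with the stricter filter (adjusted p = 0.0501). Klf9 is described above. Fkbp5 (-0.00, adjusted p = 0.994) and Tsc22d3 (0.50, adjusted p = 0.363), further targets of the glucocorticoid receptor, did not pass.

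Among 23 nuclear-encoded oxidative phosphorylation genes, 3 were higher and 0 lower (13% called, against 3.64% of all genes tested, median 0.02): Ndufb5 of complex I (0.72, adjusted p = 0.0126) and the ATP synthase subunits Atp5b (0.37, adjusted p = 0.024) and Atp5a1 (0.39, adjusted p = 0.0338). Their calls ended for Ndufb5 without wild-type replicate 1, 2 or 3 or without heterozygous replicate 1 or 4 (adjusted p 0.0514 to 0.0601), for Atp5b without wild-type replicate 2 or 3 or without heterozygous replicate 1, 3 or 4 (adjusted p 0.0567 to 0.122) and for Atp5a1 without wild-type replicate 1, 2 or 3 or without heterozygous replicate 1, 3 or 4 (adjusted p 0.0793 to 0.159). None of 23 GABA and glutamate transmission genes was called by edgeR, against 3.64% of all genes tested. An unadjusted p under 0.05 was met by 3 of them, against 18.8% of all genes tested. Of 11 immediate early genes only Btg2 was called (9.09%), and of 19 clock genes only Rora (5.26%, against 3.64% of all genes tested), at 0.79 (adjusted p = 0.0453). Other translation and splicing-related genes picked after their values were seen were Eif3a, an initiation factor subunit, at 483, 471, 556 and 750.4 CPM in wild-type and 954, 775, 1473 and 1299 CPM in heterozygous mice (log2 fold change 0.99 ± 0.15 SE, adjusted p = 2.27e-04), and Pnn, pinin, of nuclear speckles (1.05, adjusted p = 2.27e-04), both without overlap and called in all 8 omissions.

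Few markers of other cells and neighbouring regions were called. No gene was called by edgeR among 16 oligodendrocyte, 9 precursor, 15 astrocyte, 9 microglial and 10 vascular markers, against 3.64% of all genes tested. At that share, lists this short would hold few or no calls. Of these markers 2, 0, 5, 1 and 2 had an unadjusted p under 0.05, against 18.8% of all genes tested. Summed oligodendrocyte markers were 3984 to 4908 CPM in wild-type and 3439.9 to 4670.1 CPM in heterozygous libraries. For astrocytes the ranges were 6261 to 8022 and 6511 to 6917 CPM, and for microglia 336 to 390.3 and 337 to 369 CPM. Gfap, the astrocyte filament, was at 71.2, 109.8, 129 and 123 CPM in wild-type and 63.1, 102, 62.0 and 69.1 CPM in heterozygous mice and did not pass (-0.52, adjusted p = 0.074), though limma-voom called it lower (adjusted p = 0.0215), as did edgeR without the filter on low counts (adjusted p = 0.012). The astrocyte marker Mlc1 was also called lower by limma-voom (-0.45, adjusted p = 0.0417). Another, Aldoc, went the other way. It was called higher by DESeq2 (0.33, adjusted p = 0.0178), by limma-voom (0.35, adjusted p = 0.0143) and with the composition offset (0.37, adjusted p = 0.0245).

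None of 11 hypothalamic transcription factors tested was called, against 3.64% of all genes tested. The summed level of that list was 204 to 235 CPM in wild-type and 221 to 270.2 CPM in heterozygous libraries. Of 11 thalamic markers Rora alone was called (9.09%, against 3.64% of all genes tested). However, 6 of the 11 had an unadjusted p under 0.05, against 18.8% of all genes tested. Their median log2 fold change was 0.34, and 9 were positive. Rora was at 42.4, 25.5, 18.8 and 28.8 CPM in wild-type and 46.5, 41.6, 36.7 and 76.6 CPM in heterozygous mice. Its call ended without wild-type replicate 2, 3 or 5 or without heterozygous replicate 1, 3 or 4 (adjusted p 0.0582 to 0.258). It also ended with the composition offset (0.73, adjusted p = 0.0605), with upper-quartile scaling (adjusted p = 0.0533) and with the stricter filter (adjusted p = 0.0506). Heterozygous replicate 4 was highest in Rora and, far above its group, in the thalamic kinase gene Prkcd, at 28.0, 4.90, 9.02 and 6.41 CPM in wild-type and 10.6, 14.1, 6.89 and 84.8 CPM in heterozygous mice (1.22, adjusted p = 0.194, and adjusted p = 2.41e-04 without the filter on low counts). It was also highest in the thalamic factor Tcf7l2, at 93.2, 66.7, 69.9 and 67.9 CPM in wild-type and 69.7, 82.7, 74.2 and 164 CPM in heterozygous mice (0.38, adjusted p = 0.284). Summed thalamic markers were 846 to 1022 CPM in wild-type and 953 to 1353 CPM in heterozygous libraries, and their part in the Rora result was not tested. None of 10 telencephalic and striatal markers was called, against 3.64% of all genes tested.

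Genes near Wfs1 were examined because flanking DNA can differ between a mutant allele and its wild-type counterpart. Within 10 Mb of Wfs1, 3 of 109 genes tested were called (2.75%), against 373 of 10277 elsewhere (3.63%). All 3 were higher: Bod1l, of the DNA damage response, at 263, 273, 225 and 279 CPM in wild-type and 419.7, 356, 449 and 477 CPM in heterozygous mice (log2 fold change 0.71 ± 0.11 SE, adjusted p = 3.84e-04), Slc4a1ap (0.57, adjusted p = 0.0269) and Ppp2r2c, a phosphatase regulatory subunit whose gene lies next to Wfs1 at chr5:36868513-36955078 (0.38, adjusted p = 0.0462). Bod1l was called in all 8 omissions. Slc4a1ap lost its call without wild-type replicate 1, 2 or 3 or without heterozygous replicate 1, 3 or 4 (adjusted p 0.0686 to 0.139), and Ppp2r2c lost it in every omission but that of heterozygous replicate 2 (adjusted p 0.0605 to 0.203). The composition offset ended the call of Slc4a1ap (0.47, adjusted p = 0.0625), and upper-quartile scaling and the stricter filter that of Ppp2r2c (adjusted p = 0.0573 and 0.0503). Over whole chromosomes the share called ran from 1.81% on chromosome 16 to 6.65% on chromosome 19, leaving out the Y chromosome with 4 genes tested, and was 4.05% on chromosome 5.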

How the data were processed

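The authors deposited raw counts per gene symbol as a single table, and the values are whole numbers with a total of their own in each library. Per the labels' protocols, DNase-treated total RNA was amplified as cDNA (NuGEN Ovation, version 2) and sequenced on a SOLiD 5500xl instrument. The submitters' processing notes name build mm10. Not given in the sources used here are the aligner, the counting tool, the annotation and the strand.

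Of 24020 genes, 6473 had no count in the 8 libraries and 10494 passed edgeR's filterByExpr. Line numbers skip 58 values in this copy, and 955 lines with a suffixed repeat symbol were kept apart. Counts were scaled by TMM and tested by genotype on these 8 libraries alone with quasi-likelihood F tests (edgeR 4.0.16 in R 4.3.3), with Benjamini-Hochberg adjustment over all genes tested and a threshold of 0.05. The common biological coefficient of variation was 0.119. The procedure was tested on simulated data. Symbols were matched to GENCODE M21 for positions and transcript composition: 20717 matched as written, 1895 through an older name, and 1408 had no match.

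Genes are named by rule: Wfs1, the 15 largest rises and the 15 largest falls among called genes (mean of at least 1 CPM, no provisional name), and up to 4 genes of each of 20 pathway and 13 marker lists by smallest p. Other genes were picked after their values were seen, as said where they appear or as members of a list. The comparison, lists and rules were chosen with earlier results of these data known. Alternatives were DESeq2 1.42.0, limma-voom (limma 3.58.1), other scaling factors and filters, all 12 libraries, a replicate block, composition terms and leaving out each library. The homozygous libraries were otherwise not used. Protein composition was not analysed here. Results for a few genes are not reported here.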

Additional observations from a re-analysis of the deposited data

Results flagged for a closer look

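Among 352 groups of 4 libraries tested over the named genes reported here, 28 had a library whose gap to its nearest neighbour was too large by Dixon's test at 95% for groups of 4. Chance alone flags about 1 in 20 groups, and genes share libraries, so the flags are not independent. Levels are TMM-scaled CPM, and the range after each value is that of the other 3 libraries of the group.

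Wild-type replicate 1 was the highest of its group in Zdhhc4 at 16.7 CPM, against 14.7 to 15.036 and in Snhg1 at 14.4 CPM, against 9.61 to 9.80. It was the lowest of its group in Penk at 122 CPM, against 147 to 149.972. Wild-type replicate 2 was the highest of its group in Igfbp5 at 424 CPM, against 309.7 to 315. It was the lowest of its group in Ndufb2 at 2.94 CPM, against 16.5 to 18.6 and in Ddit3 at 7.84 CPM, against 11.5 to 12.1. Wild-type replicate 3 was the highest of its group in Gnb2 at 40.6 CPM, against 21.8 to 24.5. Wild-type replicate 5 was the highest of its group in Prpf38b at 201 CPM, against 90.2 to 98.5, in Nefm at 449 CPM, against 203 to 235 and in Ptgds at 983 CPM, against 240.3 to 331. It was the highest of its group in Atp5a1 at 793 CPM, against 591 to 622, in Rbm25 at 282 CPM, against 195 to 200.1 and in Vtn at 41.0 CPM, against 23.3 to 25.8.

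Heterozygous replicate 1 was the highest of its group in Clic6 at 35.2 CPM, against 24.9 to 26.0. It was the lowest of its group in Gria1 at 287 CPM, against 328 to 333. Heterozygous replicate 2 was the highest of its group in Rn45s at 810.1 CPM, against 367 to 396, in Gnb2 at 22.7 CPM, against 6.12 to 8.63 and in Ctsb at 561 CPM, against 448 to 467. It was the highest of its group in Clcn6 at 78.9 CPM, against 54.3 to 56.8, in Srebf2 at 113 CPM, against 78.1 to 83.0 and in Avp at 33.4 CPM, against 12.3 to 15.3. That library was the lowest of its group in Calm2 at 407 CPM, against 538 to 559.5. Heterozygous replicate 3 was the highest of its group in Vim at 53.6 CPM, against 37.9 to 39.7. It was the lowest of its group in Klhl21 at 3.06 CPM, against 5.31 to 5.57, in Cdh5 at 4.59 CPM, against 9.30 to 9.57 and in Oxt at 16.1 CPM, against 33.2 to 35.6. Heterozygous replicate 4 was the highest of its group in Prkcd at 84.8 CPM, against 6.89 to 14.1. It was the lowest of its group in Ankrd13d at 5.47 CPM, against 13.3 to 14.5.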

How the results depend on the processing

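All 382 called genes that an alternative tested kept their direction in each of the 19 alternatives, but the number called did not hold. DESeq2 called 396 genes, RLE factors 383, upper-quartile factors 363 and a filter at 10 CPM in 4 libraries 377. Limma-voom called 608 (212 lower), no filter 186 lower, all 12 libraries 64 (55 higher and 9 lower), the composition offset 254 (69 lower) and the score covariate 5 (4 higher and 1 lower), where Wfs1 was -0.63 on the log2 scale at adjusted p = 0.275. Leaving out a library gave 95 to 997 calls (78 to 540 higher and 17 to 457 lower). Without heterozygous replicate 2 the higher share fell from 70.4% to 54.2%. Without the 2 ends of the first component, an alternative chosen after seeing the data, 24 were called (20 higher and 4 lower). The causes of these shifts were not tested.

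With the replicate number as a block 183 genes were called (136 higher and 47 lower). The deviations of same-numbered libraries from their group means had correlations of 0.0932, 0.0838 and -0.0862. Those of libraries with different numbers ran from -0.122 to 0.135, so these values do not settle whether numbers pair animals. No label says that they do, and the numbers were not taken as pairs.

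Log2 fold changes that changed sign belonged to genes that were not called. With the block these were 0.0048 for Tek, 0.30 for Dcn, 0.21 for Pomc, -0.32 for Prkcd and 0.0494 for Cisd2. With the score covariate they were 0.14 for Olig1, -0.0316 for Bpgm, -0.0556 for Fezf1, 0.54 for Avp, 0.23 for Oxt. Limma-voom gave -0.23 for Th, and the offset -0.0773 for Prlr. Without both ends of the first component the values were -0.0282 for Vim, 0.13 for Beta-s, -0.097 for Bpgm, -0.00203 for Ddit3. Over the omissions of a library they ran from -0.47 to 0.35 for Th, -0.20 to 0.0483 for Cisd2, -0.0253 to 0.18 for Bpgm, -0.0458 to 0.13 for Prlr, -0.38 to 0.11 for Dcn, -0.27 to 0.10 for Oxt, -9.81e-05 to 0.23 for Vim, -0.15 to 2.03 for Prkcd. Depth was 1030045 to 2329642 counts a library, which limits genes of low count most.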
